A study of Mus musculus with 28 samples.

Results

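A set of 61 features was higher in cultured mouse cortical neurons than in cultured hippocampal neurons by both means of collection used, out of 28661 features counted. A feature here is a UCSC known gene, or several overlapping isoforms joined in 1 name. The level of a feature in a library was log2(CPM + 10), where CPM is its counts-per-million over the reads assigned to features. Members were chosen from the cultured neurons alone: the mean level had to be higher in cortex by 1 or more among neurons collected by TIVA, and by 1 or more among neurons collected by pipette. The 61 members are 0.213% of all features. A member's mean log2(CPM + 10) can only pass the rule if it reaches the value of 10 CPM in both cultured cortical groups. This holds for 6687 features, of which the members are 0.912%, and they serve below as the background, called the features that could be members.

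The neocortex and the hippocampus are neighbouring parts of the pallium, and both are built mainly of glutamatergic pyramidal neurons with a smaller number of GABAergic interneurons. Region-restricted transcription factors and adhesion molecules are laid down during development, and neurons dissociated from either region keep part of that program after they have lost their layers and long-range inputs. A single neuron also carries the program of its own subtype.

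All libraries came from C57BL/6 mice with no transgene named in the labels. Cultured neurons were grown on coverslips for 7 to 9 days, and gave 4 cortical neurons by TIVA, 4 cortical by pipette, 4 hippocampal by TIVA and 3 hippocampal by pipette. Tissue neurons were sampled in acute coronal slices, from mice aged 8 to 10 days, and gave 2 cortical neurons by TIVA, 5 hippocampal by TIVA and 3 hippocampal by pipette, beside 3 bulk libraries of hippocampal tissue. TIVA is short for transcriptome in vivo analysis. Cells take up a caged tag, a laser uncages it in the chosen cell, and there it binds polyadenylated RNA, which is then captured. Cultures were given 10 µM tag for 15 min and slices 30 µM tag for 90 min. The laser was at 30% for cultured neurons and at 80% for tissue neurons. Tag loading and laser thus differ between culture and tissue as well as the setting. Pipette neurons and bulk tissue are labelled as untreated, and the RNA of every library was amplified in 3 rounds of in vitro transcription. Cortical tissue was sampled by TIVA only, and bulk tissue from hippocampus only.

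Assigned reads were 7.89 M and 5.30 M (M for mega) in the cortical tissue neurons, between 24.1 and 33.4 M in the TIVA neurons of hippocampal tissue, between 6.64 and 11.6 M in its pipette neurons and between 26.7 and 59.0 M in bulk, so region and depth move together among tissue TIVA neurons. Reads outside any feature made up 43.4% to 67.5% of counted reads in cultured cortical TIVA neurons and 19.9% to 38.4% in cultured hippocampal TIVA neurons, a difference that runs with region in the comparison that chose the members. Its part in that choice was not tested. The identifiers could not be joined to gene symbols, so the labelled cell type was not checked against marker genes and no gene function is given. Every single-neuron library is 1 cell of an unnamed animal or culture, so a group was taken as 1 sample. Sizes of differences and the spread over libraries are given, and no test was run. Neuron 5 of the hippocampal tissue TIVA group stood apart in the members, and counts over that group are given with and without it.

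In culture, where the rule used the values, the members' cortex minus hippocampus difference in mean log2(CPM + 10) ran from 1.01 to 2.85 by TIVA, with a median of 1.20, and from 1.02 to 2.82 by pipette, with a median of 1.41. A difference of 1 or more was reached by 416 features by TIVA (1.45%) and by 815 by pipette (2.84%). The members are 14.7% of the first list and 7.48% of the second. Most features on either list were thus near or below the limit by the other means of collection: over the 416 features the median pipette difference was 0.13, and over the 815 features the median TIVA difference was 0.28. By TIVA, 21 features were higher in cortex by 1 or more that by pipette were lower by 1 or more, and the reverse held for 2.

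The limit cuts through a dense range. Taking the smaller of the 2 cultured differences, the members just inside had 1.01, 1.02, 1.02, 1.02 and 1.03, and the features just outside had 0.99, 0.99, 0.98, 0.98 and 0.97. For 21 members that smaller difference was below 1.1, while 40 features that are not members lay between 0.9 and 1. It reached 1.5 or more in 7 members and 2.78 at most. Every cultured cortical library lay above every cultured hippocampal library for 20 members by TIVA and for 18 by pipette. Over all features the share with cortex higher in that way was 3.3% by TIVA and 1.33% by pipette, and for the members these values follow from the choice. For 6 members the cultured libraries were apart in both collections, and for 29 in neither.

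Membership also moved with single libraries. Leaving out 1 cultured library at a time gave sets of 40 to 124 features. The set grew to 118 without the cultured cortical TIVA neuron 4, to 124 without the cultured hippocampal TIVA neuron 4 and to 93 without neuron 1 of that group, and shrank to 40 without its neuron 2. Of the 61 members, 9 stayed in the set whichever cultured library was left out, and 25 stayed under each of 3 other scalings of the libraries. Both conditions held for 8.

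**Figure D1:**
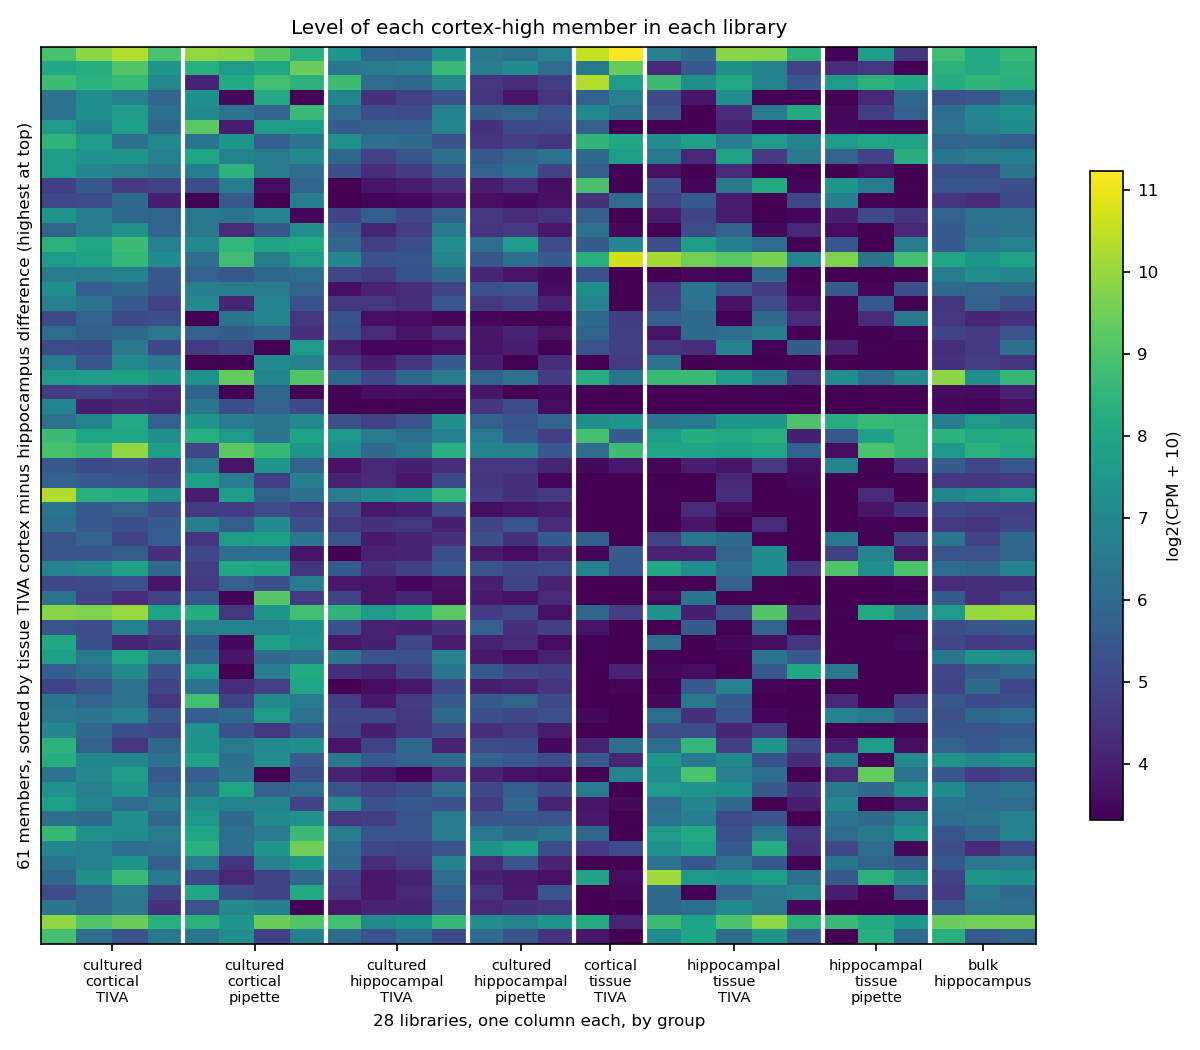
Level, as log2(CPM + 10), of the 61 members (a line of the picture each, sorted by the cortex minus hippocampus difference in tissue TIVA neurons) in the 28 libraries (columns, by group, separated by white lines). The cultured cortical columns at the left are brighter than the cultured hippocampal ones by choice of the members; in the tissue neurons dark cells, at or near 0 reads, stand beside bright ones, and the 3 bulk columns hold no member at 0 reads.

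In the tissue neurons, which the rule did not use, the members as a set were not higher in cortex. The members' median cortex minus hippocampus difference among TIVA neurons was −0.22, with quartiles of −1.13 and 0.40 and a range of −3.33 to 2.70. In this comparison 7 of the 61 members were higher in cortex by 1 or more (11.5%), where the share was 3.2% over all features and 8.28% over the features that could be members. A further 20 were lower in cortex by 1 or more (32.8%), beside 13.7% and 45.7%, and 34 lay between the limits. More members were thus lower than higher in the cortical tissue neurons, except with DESeq2's size factors, where the order turned to 20 higher and 12 lower with a median of 0.03.

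The members lay above their background. The median over the features that could be members was −0.87, so the members' median was 0.64 higher, and this distance stayed between 0.34 and 0.98 under the other scalings, pseudocount and sums and between 0.51 and 0.77 with any 1 tissue TIVA library left out. With DESeq2's size factors 21.3% of the features that could be members were higher and 29.5% lower, with a median of −0.31, so background and members moved together. The mirror set of 60 features, which were lower in cultured cortex by 1 or more in both collections, had a median of −1.25 in the same tissue comparison. Of these, 2 were higher in cortical tissue neurons by 1 or more (3.33%) and 34 lower (56.7%), beside 3.2% and 13.7% of all features. The features high enough in cultured hippocampus to be in the mirror set, 6847 in number, had a median of −0.90. Of that background 7.84% were higher and 46.6% lower. The 2 sets thus lay on opposite sides of their backgrounds, in the order that they had in culture. No test of this order was run. In cortical tissue neurons the members' median of the mean CPM was 22.1, beside 20.8 over the features that could be members. In hippocampal TIVA neurons it was 41.1, beside 59.2. The members were thus near their background in the cortical neurons and below it in the hippocampal ones. Those hippocampal TIVA libraries also serve in the comparison with bulk below, so the 2 results are not independent.

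**Figure D2:**
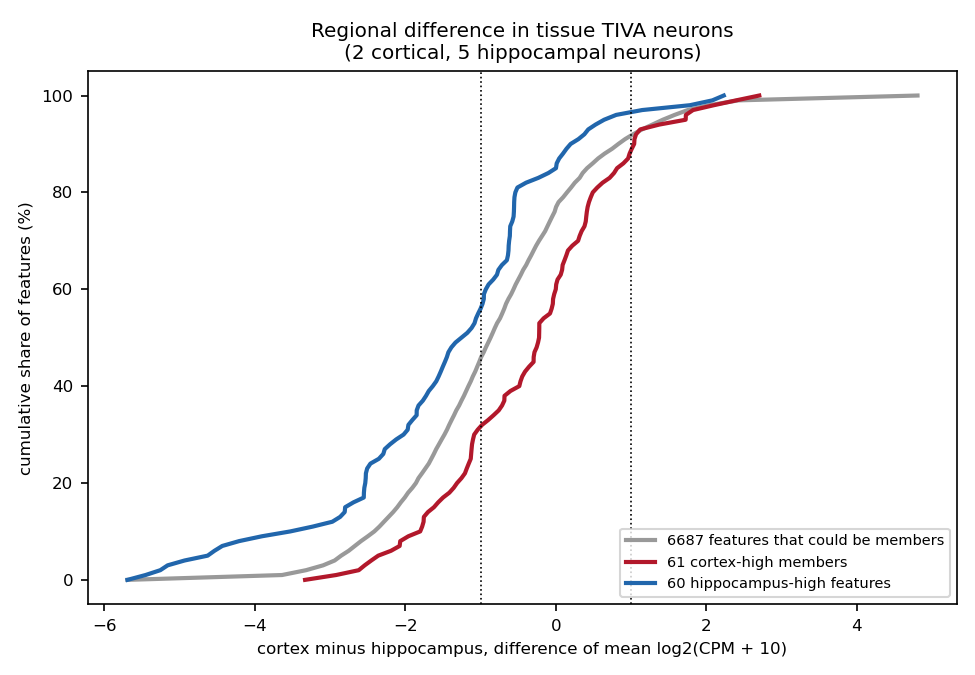
Cumulative share of features (y axis, %) against the cortex minus hippocampus difference of mean log2(CPM + 10) in tissue TIVA neurons (x axis; 2 cortical and 5 hippocampal neurons; dotted lines at −1 and 1). The line of the 61 members, with a median of −0.22, runs to the right of the 6687 features that could be members, at −0.87, and that of the 60 hippocampus-high features, at −1.25, to their left.

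The 2 cortical tissue neurons differed in how many members they carried at a high level. Set singly against the 5 hippocampal TIVA neurons, which both comparisons share, neuron 1 had 15 members higher by 1 or more (24.6%) and 16 lower (26.2%), with a median of −0.23. These shares were 15.2% and 42.3% over the features that could be members, and 5.48% and 13.1% over all features. Neuron 2 had 8 higher (13.1%) and 24 lower (39.3%), with a median of −0.61. Beside these stood 12.2% and 55.5% of the features that could be members, and 3.80% and 16.7% of all features. The share higher in neuron 2 was thus near that of the background. The features that could be members moved the same way, with medians of −0.73 for neuron 1 and −1.19 for neuron 2. Neuron 2 was the shallower library, and the part of depth in this was not tested. Without hippocampal neuron 5 the counts were 7 higher and 20 lower, the same as with it, and the median was −0.37.

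Few members separated the tissue neurons cell by cell. Both cortical neurons lay above all 5 hippocampal TIVA neurons, with a difference of 1 or more, for 2 members, beside 0.813% of all features and 2.66% of those that could be members. Both lay below all 5, with a difference of −1 or less, for 2 members, beside 6.47% and 21.6%. The counts were 1 above and 6 below without hippocampal neuron 5, and 5 members were below without neuron 2. The 4 members apart from all 5 are those named below. They were named for being apart, so the gaps between the regions in tissue given for them follow from that choice.

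The members were next split by the tissue regional difference itself, so their levels in the 2 TIVA groups follow in part from that split. They are given as a description. The 7 members that were higher in cortical tissue neurons were mostly abundant there. Their mean CPM ran from 22.4 to 1930 in cortical tissue neurons, with a median of 305, against a median of 78.1 in hippocampal tissue TIVA neurons and 112 in bulk hippocampus. Of the 7, 1 was at 0 reads in a cortical neuron and 2 were at 0 reads in some hippocampal TIVA neuron. The 20 members that were lower had a median of 2.59 CPM in the cortical neurons, 62.7 in hippocampal TIVA neurons and 58.1 in bulk. Most of these 20 were low in the cortical libraries: 12 were below 10 CPM in both, 10 were at 0 reads in at least 1 of them, and 3 had 50 CPM or more in 1 cortical neuron and less than 1 CPM in the other. The 34 members between the limits had medians of 23.0 CPM in cortical and 20.7 in hippocampal TIVA neurons, with 5 at 0 reads in both cortical neurons and 2 at 0 reads in all 5 hippocampal ones.

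The first named member, uc007rik.2, joins 7 identifiers and had the highest cortex minus hippocampus difference of the members in both cultured TIVA and tissue TIVA neurons. It was at 1464 and 2396 CPM in the cortical tissue neurons and at 99.5, 56.3, 905, 885 and 330 CPM in the hippocampal tissue TIVA neurons. The 2 regions did not overlap, which naming required: the highest hippocampal cells, neurons 3 and 4, stayed below the lower cortical one. The difference in mean log2(CPM + 10) was 2.70, and stayed between 2.17 and 3.12 with any 1 of these 7 libraries left out. The mean CPM was 4.24-fold higher in cortex, and the ratio of pooled reads was 3.92 (95% interval 3.87 to 3.98, for counting error only).

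Elsewhere, uc007rik.2 was spread widely among hippocampal cells and evenly in bulk. It was at 0.511, 206 and 13.3 CPM in the 3 hippocampal tissue pipette neurons, a range from 4 reads to 1368 reads, and at 440, 278 and 384 CPM in bulk. All 3 pipette neurons lay below the bulk libraries, and the TIVA neurons lay on both sides of them. In culture it was at 482, 927, 1268 and 489 CPM in cortical TIVA neurons and 169, 54.2, 48.2 and 150 CPM in hippocampal TIVA neurons, and at 976, 903, 572 and 313 CPM in cortical and 82.3, 67.2 and 105 CPM in hippocampal pipette neurons. The regions did not overlap in either cultured collection, and it is among the 8 members that stayed in the set both without any 1 cultured library and under the 3 scalings.

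The second named member higher in cortical tissue, uc008uua.1, was at 353 and 257 CPM in the cortical neurons and at 139, 216, 91.2, 186 and 109 CPM in the hippocampal TIVA neurons. The groups were apart by a small margin, and the difference was 1.04 (2.06-fold in mean CPM). It fell under 1 without cortical neuron 1 (0.82), hippocampal neuron 3 (0.90) or hippocampal neuron 5 (0.95), so its place above the limit rests on those libraries. With DESeq2's size factors it was 2.33 and with TMM 1.47. In the pipette neurons of hippocampal tissue uc008uua.1 was at 193, 243 and 232 CPM and in bulk at 50.3, 52.8 and 42.0 CPM. Here all 8 hippocampal tissue neurons, by either means, lay above all 3 bulk libraries, by 1.38 for TIVA and 1.99 for pipette on the log2(CPM + 10) scale, so this member was higher in the captured neurons than in whole tissue. In culture it was at 66.4 to 350 CPM in cortical TIVA neurons against 30.1 to 154 CPM in hippocampal ones, which overlap, and at 41.7 to 173 CPM against 13.4 to 17.9 CPM by pipette, which do not. It did not stay in the set whichever cultured library was left out, nor under each of the other scalings.

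The 2 named members lower in cortical tissue were at 4.05 CPM or less in the libraries of both cortical tissue neurons. The feature uc009kzo.1, of 4 identifiers, was at 4.05 CPM in cortical neuron 1 and had 0 reads in neuron 2, where 0 reads allow up to 0.567 CPM. It was at 133, 248, 62.1, 164 and 41.8 CPM in the hippocampal TIVA neurons. All 5 lay far above the higher cortical cell, and the difference was −3.33. The ratio of pooled CPM, cortex over hippocampus, was 0.0190 (0.0130 to 0.0268). This member varied in other groups too: it was at 0.638, 303 and 57.6 CPM in the pipette neurons and at 304, 35.5 and 48.7 CPM in bulk, where 1 library lay far above the other two. In culture it was at 30.4 to 469 CPM in cortical and 23.9 to 58.1 CPM in hippocampal TIVA neurons, and at 19.3 to 141 CPM and 11.9 to 57.5 CPM by pipette, so the regions overlapped in both collections. Among the cortical TIVA neurons 1 was at 469 CPM and the others at 30.4 to 81.5 CPM. This member did not stay in the set whichever cultured library was left out, nor under each of the other scalings. Its contrast of culture and tissue thus rests on an unsteady membership.

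The feature uc008enb.1, of 5 identifiers, had 1 read in each cortical tissue neuron, or 0.152 CPM over both (0.0184 to 0.548). In hippocampal TIVA neurons it was at 54.0, 63.7, 127, 77.7 and 1.55 CPM, so 4 cells were high and neuron 5, the library that stood apart, was low. The difference was −2.51, and −3.09 without neuron 5, and the ratio of pooled CPM was 0.00224 (0.000271 to 0.00809). It had 4 reads in all 3 hippocampal pipette neurons together, all in 1 cell, or 0.153 CPM (0.0417 to 0.392), while bulk held 33.9, 66.7 and 62.2 CPM. This member was thus high in 4 of the 5 hippocampal TIVA neurons, low in neuron 5, and at or near 0 reads in the pipette neurons. In culture, where it passed the rule, it was at 11.8 to 77.7 CPM in cortical TIVA neurons and at 0.607 to 122 CPM in cortical pipette neurons, against 4.18 to 33.1 CPM and 8.59 to 12.8 CPM in hippocampal ones. The regions overlapped in both collections. It stayed in the set under each of the other scalings, but not whichever cultured library was left out.

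**Figure D3:**
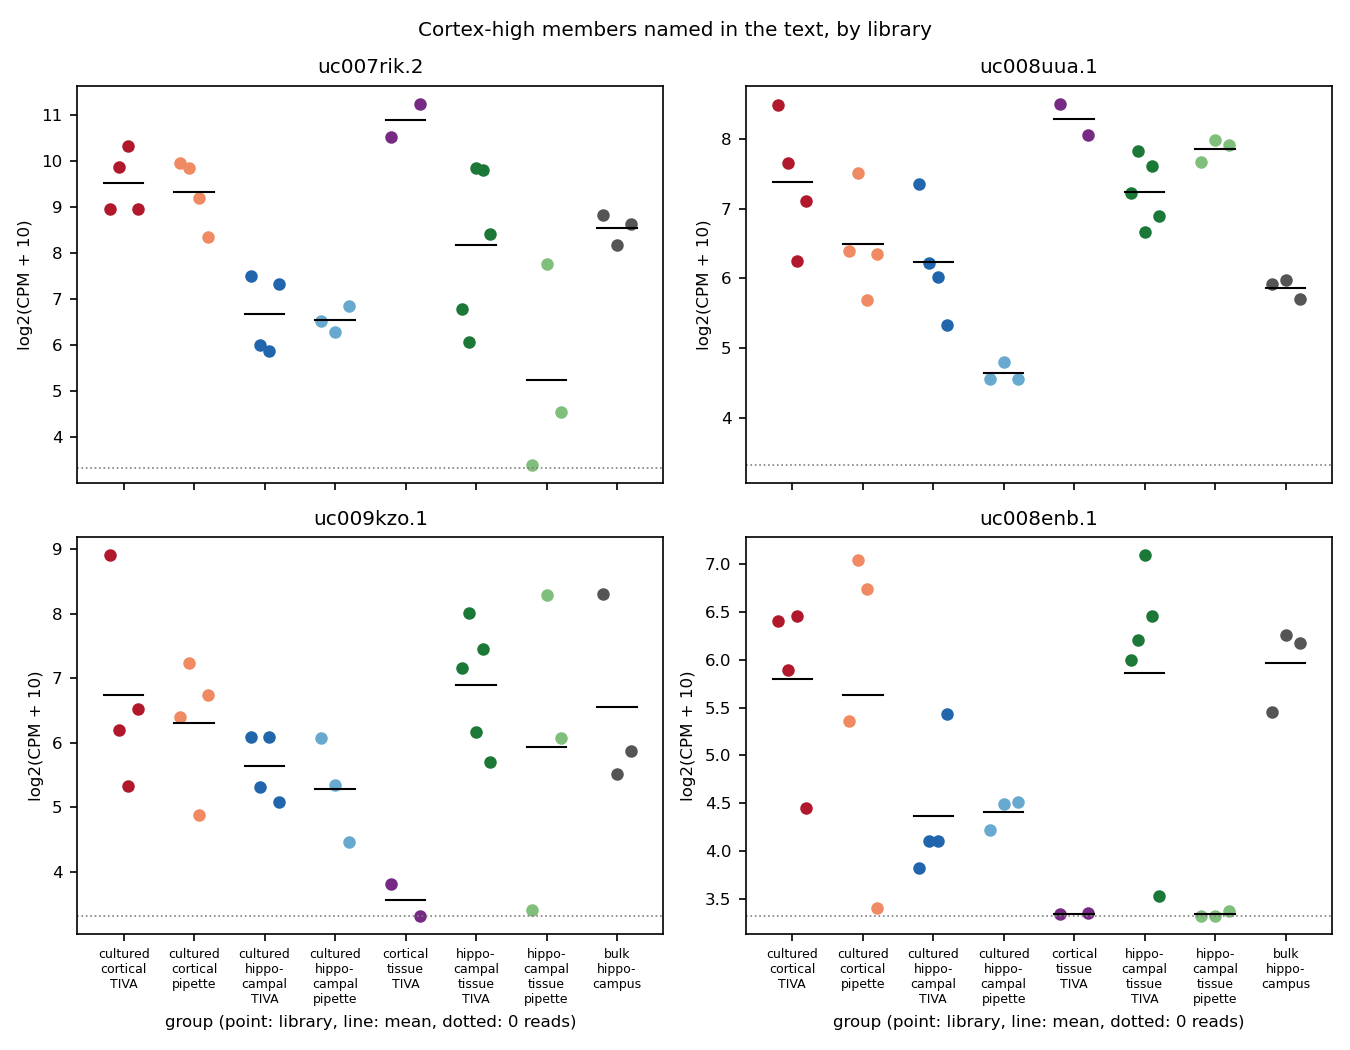
Level, as log2(CPM + 10), of the 4 named members in each library (points) with the group mean (line), for the 8 groups, with the level of 0 reads dotted. The 2 cortical tissue neurons lie above the 5 hippocampal tissue TIVA neurons in the upper panels and below them in the lower panels, where they sit at or near 0 reads. This order in tissue follows from the choice of the named members.

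As a share of all assigned reads, the 61 members together took 0.671% and 0.683% in the 2 cortical tissue neurons. In hippocampal tissue TIVA neurons they took 0.657%, 0.584%, 0.562%, 0.677% and 0.256%, and in pipette neurons 0.399%, 0.490% and 0.455%. Bulk hippocampus gave 0.605%, 0.631% and 0.724%. Both cortical neurons lay within the range of the bulk libraries and close to the highest hippocampal TIVA cells, with hippocampal neuron 5 low. The mean of the hippocampal TIVA neurons was 0.547%, and 0.620% without it.

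The cortical share was carried by a few members. In cortical tissue neurons the 5 members with the most CPM held 63.8% of the set's total, against 26.6% to 40.4% in the other 7 groups. The feature uc007rik.2 alone held 21.8% and 35.1% of the members' reads in the 2 cortical cells. Without it, an alternative chosen after seeing the data, the set took 0.525% and 0.443%, inside the range of the hippocampal TIVA neurons, 0.223% to 0.647%.

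The share in culture follows from the rule and is given for scale. It was 0.438% to 1.15% in cortical and 0.154% to 0.468% in hippocampal TIVA neurons, and 0.726% to 0.914% and 0.125% to 0.198% in the pipette neurons. The TIVA ranges touch, and they part when the 50 most abundant features are taken out of the total: 1.09% to 1.90% in cortex and 0.435% to 0.622% in hippocampus. Those 50 features, none of them a member, took 22.3% to 59.7% of assigned reads in cultured cortical and 23.4% to 64.6% in cultured hippocampal TIVA neurons. Measured in that way, cortical tissue neurons stood at 0.925% and 0.951% and hippocampal tissue TIVA neurons at 0.311% to 0.790%, which no longer overlap, with bulk at 0.785% to 0.919%. This measure keeps uc007rik.2, which held 21.8% and 35.1% of the members' reads in the cortical neurons. In hippocampal TIVA neurons it held 0.964% to 16.1%. The gap was not computed without it, so it cannot be read as a trait of the whole set.

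**Figure D4:**
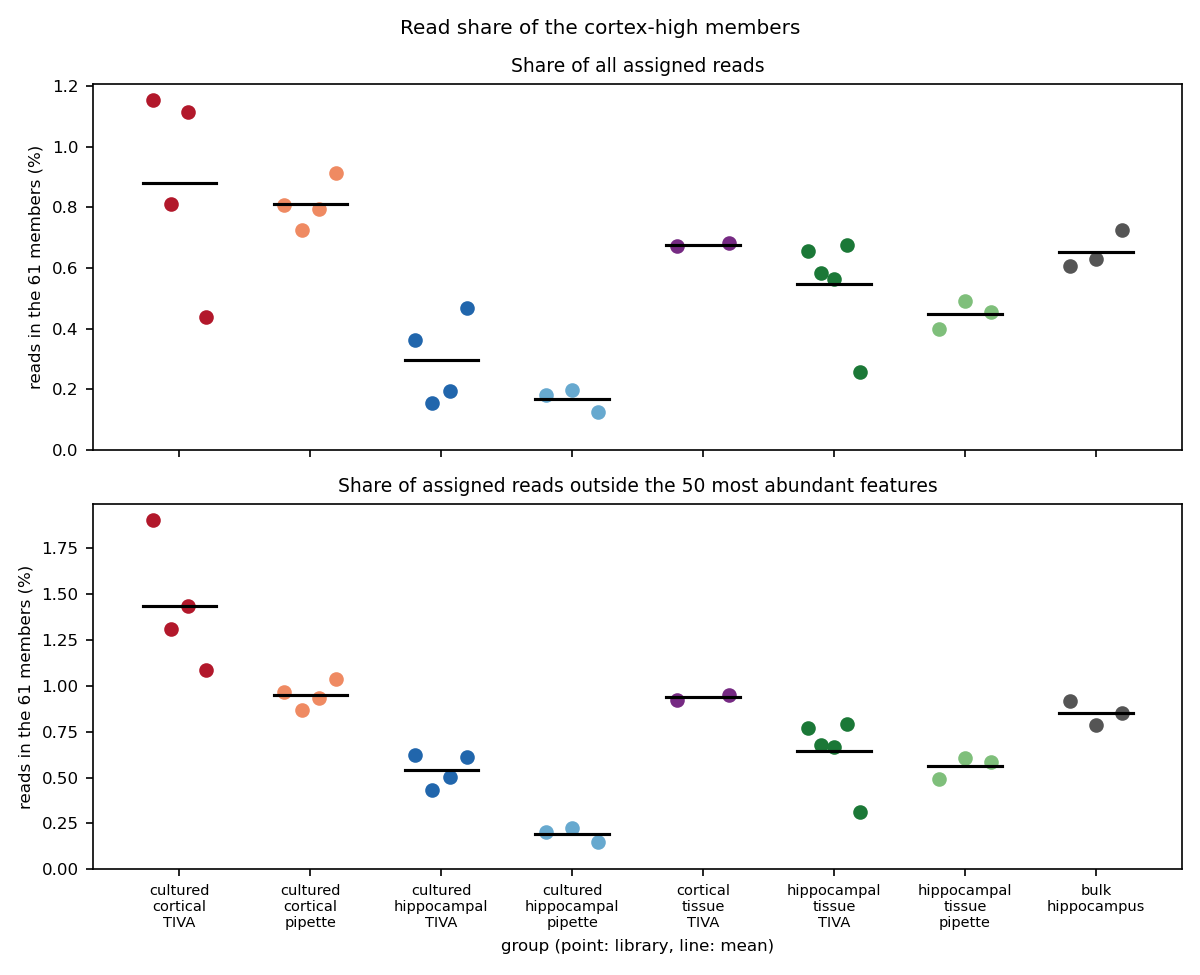
Share of reads (y axis, %) taken by the 61 members in each library (points) with the group mean (line), out of all assigned reads in the upper panel and out of reads outside the 50 most abundant features in the lower panel. Cultured values follow from the choice of members; among tissue libraries the 2 cortical neurons (0.671% and 0.683%) sit in the upper panel beside bulk and above hippocampal TIVA neuron 5 (0.256%).

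Bulk hippocampus held nearly every member, and single hippocampal neurons did not. At 10 CPM or more, bulk libraries held 93.4% to 96.7% of the members, beside 93.6% to 98.2% of the features that could be members. In bulk the members were thus at the share of their background. Hippocampal TIVA neurons held 63.9%, 63.9%, 65.6%, 63.9% and 41.0%, and pipette neurons 44.3% to 52.5%. The same shares over the features that could be members were 69.1% to 82.8% in TIVA and 63.5% to 73.3% in pipette neurons, so fewer members than background features reached 10 CPM in each of these 8 cells. CPM is not scaled to transcript length, which was not available for these features. In the cortical tissue neurons 55.7% and 39.3% of the members reached 10 CPM, close to the background of 54.7% and 39.7%.

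The order was the same at equal depth. With every library thinned to 5.30 M reads, each bulk library still held 1 or more reads of all 61 members, and of 99.97% to 100% of the features that could be members. The hippocampal TIVA neurons held 54, 51, 55, 51 and 40 of the members (65.6% to 90.2%), beside 88.2% to 95.8% of that background. The pipette neurons held 45, 46 and 44 (72.1% to 75.4%), beside 89.3% to 93.1%. The cortical neurons held 47 and 42 (77.0% and 68.9%), beside 79.7% and 73.7%. At full depth no member was at 0 reads in any bulk library, beside 0.0299% of the features that could be members. In hippocampal TIVA neurons 19 members were at 0 reads in at least 1 cell (31.1%, beside 12.8% of the features that could be members), and 13 without neuron 5 (21.3%, beside 9.77%). The count was 24 in pipette neurons (39.3%, beside 16.3%) and 25 in cortical tissue neurons (41.0%, beside 35.4%). Of the mirror set, 23.3% were at 0 reads in at least 1 cell among hippocampal TIVA neurons, 23.3% among pipette neurons and 55% among cortical neurons.

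Some members were high in 1 library of a group and below 1 CPM in another, here called switched. Whether a value below 1 CPM means absence from the cell was not tested. Of the members at 50 CPM or more in a hippocampal TIVA neuron, a median of 10.7% were below 1 CPM in another neuron of the group. This share ran from 0 to 28.6% over the 20 ordered pairs of cells, with only 10 to 29 members at 50 CPM or more in a cell. It was 8.99% over all features, near that of the members, and 6.59% over the features that could be members. In pipette neurons the median was 14.7% (4.55% to 31.6%), beside 10.6% over all features and 7.13% over those that could be members. The pipette value rests on single cells: it was 7.03% without neuron 1, beside 5.70% of the features that could be members, and 22.6% without neuron 3, beside 8.08%. Between the 2 cortical tissue neurons the shares were 6.67% and 22.7%, beside 10.6% and 21.0% of that background and 14.8% and 27.8% of all features. There the members did not stand apart from their background. In bulk the share was 0 for each pair. Without hippocampal TIVA neuron 5 the median of that group was 8.93%, beside 4.47% of the features that could be members.

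Set against bulk, the members were lower in captured hippocampal neurons. For TIVA neurons the median of the neuron minus bulk difference was −0.77, beside −0.29 over the features that could be members, with quartiles of −1.13 and −0.10. In bulk, fewer cells of a type and less RNA per cell cannot be told apart. In TIVA neurons 23 members were lower by 1 or more (37.7%), where the share was 6.86% over all features and 19.2% over those that could be members. A further 5 were higher (8.20%), beside 1.94% and 6.18%. For 11 of the 23 every TIVA neuron lay below every bulk library, beside 3.31% and 7.19%, and for 1 of the 5 every TIVA neuron lay above, beside 0.775% and 2.83%. TIVA neuron 5 weighed on this count: without it 15 members were lower and 6 higher, and the median was −0.55. Of these, 11 were apart below (18.0% of the members) and 4 apart above (6.56%), beside 9.12% and 4.43% of the features that could be members. With all 5 neurons the mirror set was also below bulk, with a median of −0.55, beside −0.26 over the features that could be in it. Of that set 30% were lower by 1 or more and 15% higher, beside 18.2% and 6.43%.

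The same comparison with pipette neurons, which uses the same 3 bulk libraries, gave a median of −1.18, beside −0.57. In these neurons 35 members were lower by 1 or more (57.4%), beside 10.9% of all features and 32.0% of those that could be members. Another 4 were higher (6.56%), beside 2.08% and 6.56%, which is the share of the background. For 27 of the 35 all 3 pipette neurons lay below all 3 bulk libraries, beside 7.85% and 20.9%, and for 3 of the 4 they lay above, beside 1.15% and 4.2%. The lowest differences reached −3.69 in TIVA and −4.24 in pipette neurons, and the highest 1.82 and 2.12. Under edgeR's TMM factors the TIVA count against bulk fell to 14 lower beside 5 higher. In that scaling the split over the features that could be members went from 24.4% higher among calls to 47.5% for TIVA, and from 17.0% to 31.5% for pipette, where DESeq2's size factors gave 34.6%. Without rescaling, the mirror set had a median of −0.96 in pipette neurons against bulk, with 50% lower by 1 or more. The features that could be in it had −0.55 and 31.8%. Lying below bulk was thus not particular to the members.

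**Figure D5:**
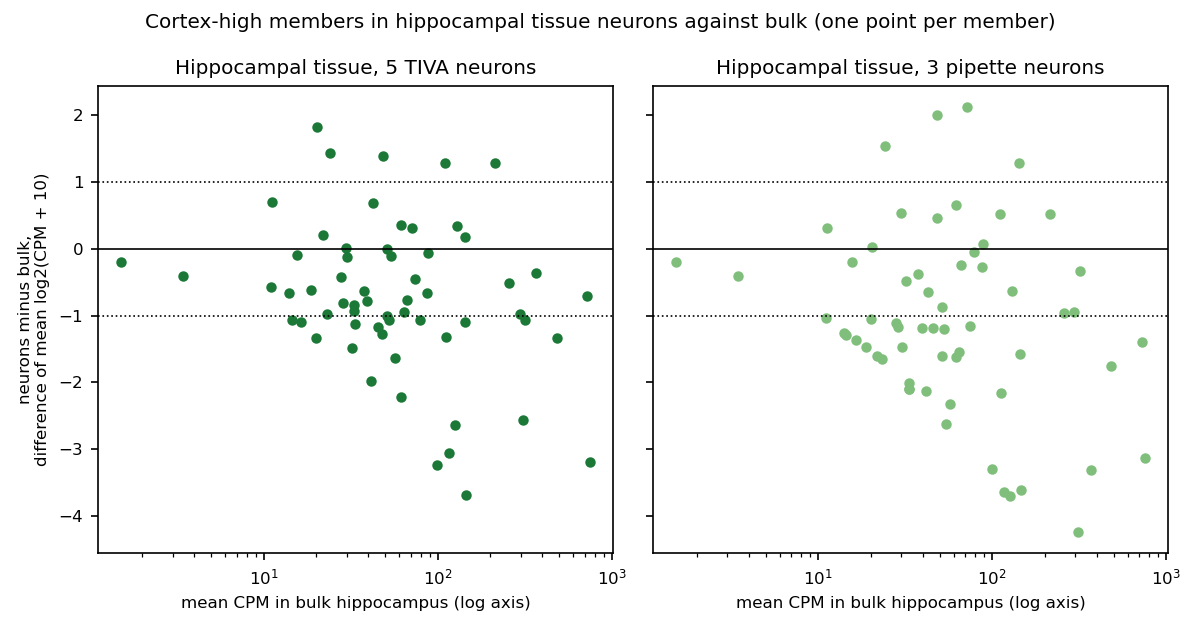
Difference of mean log2(CPM + 10) between hippocampal tissue neurons and bulk hippocampus (y axis) against the mean CPM in bulk (x axis, log scale), for TIVA neurons (left) and pipette neurons (right), with a point per member and dotted lines at −1 and 1. Below −1 lie 23 members on the left and 35 on the right, and above 1 lie 5 and 4.

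Between the 2 means of collection in hippocampal tissue the members differed little. The median TIVA minus pipette difference was 0.38, beside 0.26 over the features that could be members. Higher by TIVA by 1 or more were 11 members (18.0%), beside 6.73% of all features and 21.3% of those that could be members, and higher by pipette were 4 (6.56%), beside 3.52% and 10.3%. Both shares were below the background of the features that could be members. For members higher by TIVA that order turned with the pseudocount of 1 CPM (41.0%, beside 33.8%), summed counts (26.2%, beside 23.6%) and DESeq2's size factors (16.4%, beside 15.2%). At a difference of 1 or more, all TIVA neurons lay above all pipette neurons for 1 member, beside 1.6% and 5.31%, and below them for 0, beside 0.628% and 2.03%. Without TIVA neuron 5 these were 4 (6.56%) and 1 (1.64%), beside 7.79% and 2.78% of the features that could be members. In that case 16 members were higher and 3 lower by TIVA. Without pipette neuron 3 the count higher by TIVA rose to 17, and without pipette neuron 1 the count higher by pipette rose to 7. DESeq2's size factors gave 10 and 6, and in that scaling the share of higher among calls went from 67.3% to 48.8% over the features that could be members.

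The median over members of the mean CPM puts the groups side by side. It was 51.5 in bulk hippocampus, 41.1 in hippocampal tissue TIVA neurons, 28.3 in hippocampal tissue pipette neurons and 22.1 in cortical tissue neurons. In culture, by the rule, it was 88.1 and 102 in cortical neurons by TIVA and pipette, and 28.4 and 16.4 in hippocampal ones. Over the features that could be members it was likewise lowest among the tissue groups in the cortical neurons, at 20.8, against 45.2 in hippocampal tissue pipette neurons. Taken within each library, the median over members was 30.8 and 1.13 CPM in the 2 cortical neurons and 5.74 to 12.4 CPM in the pipette neurons, so the order of these 2 groups depends on how the median is taken. The members were a low to moderate part of each library, with 1.52 to 752 CPM in bulk.

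What the members share beyond the rule was little. A median of 3 identifiers was joined per member, against 2 over the features that could be members. Single identifiers made up 29.5% of the members and 29.2% of that background, and features of 5 or more identifiers 21.3% and 16.8%, with 14 identifiers at most. Only 2 members stood next to another member in the order of the identifiers, and 6 lay within 10 places of another, against 4 in the mirror set.

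The 9 members that stayed in the set without any 1 cultured library were described in the same way, as a list trimmed after their values were seen. In tissue TIVA neurons their median cortex minus hippocampus difference was 0.30 (−1.01 to 2.70), with 1 higher by 1 or more, which was uc007rik.2, and 1 lower. Against bulk 4 of the 9 were lower and 1 higher in TIVA neurons, and 7 lower and 0 higher in pipette neurons. The 25 members that stayed under the 3 scalings had a median of 0.00 in the tissue regional comparison, with 1 higher and 8 lower. Neither shorter list held more than 1 member that was higher in cortical tissue neurons by 1 or more.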

How the data were processed

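RNA of 25 single neurons and 3 bulk tissue pieces was measured in 28 libraries of 8 groups. The deposited files hold whole-number counts of reads for each feature, 1 file a library, made with CASAVA 1.8.1, HTSeq (no version) and genome build mm9, per the submitters' processing notes. For the aligner, strand use and HTSeq's overlap mode, settings were not given in the sources used here. Thus overlapping or antisense features and near-identical copies cannot be told apart. The 5 summary lines were left out of library sizes. The no-feature line held 15.8% to 81.1% of counted reads and the ambiguous line 0.589% to 10.9%.

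From the counts, CPM, log2(CPM + 10) and differences of group means were computed with Python 3.11.15, numpy 2.4.6 and pandas 2.3.3, and figures drawn with matplotlib 3.10.9. A difference of 1 or more in size was called, with no test, since the labels name no animal or culture. The scripts were tested on simulated data. Intervals are exact at 95% (scipy 1.17.1), and 3 reads were the limit that a count of 0 allows. Intervals and limits cover counting error only, since PCR copies and amplified RNA are not independent molecules. Assigned reads ran from 5.30 M to 59.0 M, and libraries were thinned once to 5.30 M. Members at 50 CPM or more in a library and below 1 CPM in another were counted as switched.

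Groups follow the source name in the labels. The hippocampal tissue pipette neurons have a TIVA capture text as their protocol, and that of the cortical tissue TIVA neurons mentions CA1. Per the protocols, the imaged field around the lit cell was aspirated. Each pair of libraries of a group differed by far more than sampling noise (chi-square per degree of freedom of 45.7 or more). The labels give no date or batch, so batch and group cannot be told apart.

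The members, lists and comparisons were chosen with earlier results of these data known. Of 55419 identifiers, 0 matched a table that gives symbols, and the annotation at hand is of a later build, so marker lists, coordinates and sequences were not used. The named members are the 2 highest and the 2 lowest by the tissue regional difference among those that met further conditions. They needed a mean of 20 CPM in the higher group, 10 reads in each of its libraries and groups that do not overlap. Alternatives were a pseudocount of 1, totals without the 50 most abundant features, edgeR 4.0.16 TMM factors and DESeq2 1.42.0 size factors (R 4.3.3), summed counts and leaving out each library. Removing uc007rik.2, trimming the list, leaving libraries out of counts at 0 reads or of groups that do not overlap, and the distance to the background were chosen after seeing the data.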

Additional observations from a re-analysis of the deposited data

Results flagged for a closer look

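In 28 checks of groups of 4 or 5 libraries, 6 held a library far from the others. The limit used is passed by about 1 in 20 groups for normal values and independent checks. These checks share libraries and members, and normal values were not shown, so the count of 6 cannot be set against that rate. The fifth hippocampal tissue TIVA neuron gave 3 of the 6. Its members took 0.256% of assigned reads (0.562% to 0.677% in the other four), 41.0% of its members reached 10 CPM (63.9% to 65.6%), and 65.6% had a read at the common depth of 5.30 M (83.6% to 90.2%). Over the features that could be members this library was less far out, with 69.1% at 10 CPM, where the lowest of the other four had 70.0%. Among cultured neurons, uc009kzo.1 was at 469 CPM in the cortical TIVA neuron 1 (30.4 to 81.5 CPM in the others), uc008enb.1 was at 33.1 CPM in the hippocampal TIVA neuron 4 (4.18 to 7.25 CPM), and 78.7% of the members reached 10 CPM in 1 cortical pipette neuron (91.8% to 93.4%).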

How the results depend on the processing

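No paired analysis was possible because the replicate numbers only follow the order of the records. Of 313 alternative values, 277 were labelled the same, 36 moved and 0 reversed, and the causes were not tested. Each value was labelled alone, so these labels do not mark the order of the tissue regional counts that turned with DESeq2's size factors. The tissue regional median of −0.22, which became 0.03 in that scaling, was labelled the same. The member count of 61 became 275 with a pseudocount of 1 CPM, 33 with TMM, 193 with summed counts and 40 to 124 with 1 library left out. The tissue regional counts of 7 higher and 20 lower became 20 and 12 with DESeq2's size factors, and 6 to 15 and 16 to 24 with 1 library left out; the 15 came without cortical neuron 2. Against bulk, the TIVA counts of 5 higher and 23 lower became 8 and 12 with summed counts, 37 lower with the pseudocount, 14 lower with TMM and 15 to 28 lower (4 to 7 higher) with 1 library left out. The pipette median of −1.18 became −2.21 with the pseudocount and −0.71 with summed counts, where 7 were higher. The TIVA against pipette counts of 11 and 4 became 25 and 7 with the pseudocount, 16 and 3 with summed counts, and 10 to 17 and 3 to 7 with 1 library left out. The mirror set's tissue median of −1.25 became −2.24 with the pseudocount. Outside the 50 most abundant features the mean read share was 0.938% in cortical tissue neurons, 0.561% in hippocampal pipette neurons and 0.851% in bulk, and 50.8% (pipette) and 96.7% (bulk) of members reached 10 CPM; without uc007rik.2 the cortical share was 0.484%. At 50 CPM the median detected was 30.3% in cortical tissue, 45.9% in hippocampal TIVA, 34.4% in pipette neurons and 52.5% in bulk. For uc008uua.1 the tissue difference of 1.04 fell to 0.82, 0.90 and 0.95 in the 3 cases given above, and over the settings that keep all libraries it ran from 1.04 to 2.33. There uc007rik.2 ran from 1.95 to 4.02, uc009kzo.1 from −3.01 to −5.59 and uc008enb.1 from −2.28 to −5.08. The share of members switched between cells ran from 8.57% to 14.0% in hippocampal TIVA and 7.03% to 22.6% in pipette neurons with 1 library left out. The 2 cortical tissue neurons and their depth limit each tissue regional value.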
